A study of Arabidopsis thaliana with 33 samples.

Results

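ATC, ROXY2, UBC29 and GTR2 are 4 genes of the Arabidopsis thaliana root that were selected on their measured level in the array of the SUC2 line, which marks phloem companion cells. The platform annotation gives each of them 1 probe set that lists no other gene, so they are 4 of 13350 genes read in this way, and 4 of 22746 probe sets. ATC is the locus AT2G27550, ROXY2 is AT5G14070, UBC29 is AT2G16740 and GTR2 is AT5G62680. Because the choice used the SUC2 array, the levels in the sorted lines are a description. The root sections shared no array with that choice and were tested.

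Companion cells flank the sieve tubes of the phloem, keep them supplied and load or unload what they carry, and the sucrose importer SUC2 is their classical marker. ATC encodes a relative of TERMINAL FLOWER 1 and FT, small proteins of the PEBP family that promote or delay flowering and can travel in the phloem. ROXY2 encodes a CC-type glutaredoxin, a plant-specific class of small redox proteins that bind TGA transcription factors. UBC29 encodes an E2 enzyme, which hands ubiquitin on to a target with the help of an E3 ligase. GTR2 encodes a proton-coupled importer of glucosinolates, the sulfur-rich defence compounds of the cabbage order, and works with its relative GTR1 in loading them into the phloem.

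The study measured 33 arrays. Of these, 8 came from protoplasts of seedling roots of 5 to 6 days that carried a GFP reporter and were sorted by fluorescence. Each line has 1 deposited array, and whether it is a mean of replicates is not stated. The lines were SUC2 (companion cells), S32 (protophloem and metaphloem), S17 (pericycle at the phloem pole), COBL9 (hair cells), JO121 (pericycle at the xylem pole), S4 (xylem precursors of the meristem), J2501 (a mixture of pericycle, xylem and phloem) and RM1000 (initials of lateral root primordia). The sources used here do not give the promoters behind the reporters, and all roots grew on the same standard medium without treatment. The other 25 arrays came from slices across 2 single roots of 7 days. From the tip, each root gave 6 meristematic, 2 elongation and 4 maturation sections, the maturation sections each about 500 micrometres long, and root 1 also gave a columella section.

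Values are the deposited linear intensities, whose array medians lay between 0.79 and 1.04, so a level near 1 is the middle of an array. The deposited values carry no detection call, and a level near the median may be background. The spread of the log2 values was lowest in the columella section (SD 0.137) and in 4 sections of root 1: elongation section 2 (0.426), meristematic section 1 (0.634), maturation section 4 (0.639) and maturation section 1 (0.661). It was 0.835 to 1.53 in the other 28 arrays. Elongation section 2 of root 1 is described in its label as root 2, while its title places it in root 1, where it was counted. Between the roots, sections correlated across probe sets with a Spearman rho of 0.591 at elongation section 2 and up to 0.946 elsewhere, and probe sets are not independent replicates. The companion cell identity of the SUC2 array could not be checked on known markers, because 0 of the 9 companion cell genes listed for it, SUC2 itself among them, could be read from a probe set annotated to that gene alone.

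In the sorted lines, all 4 genes had their highest level in the SUC2 array, and for 3 of them the phloem and phloem pole lines came next in the same order. ATC stood at 48.26 in SUC2, 22.81 in S32 and 13.95 in S17, against 0.79 to 1.20 in the other 5 lines. That left a wide gap: 3 lines lay above the 98th percentile of their array and 5 lay near the array median. The SUC2 level of ATC was 48.1 times the median of the other 7 lines and 2.12 times the next line, and its log2 difference of 5.59 over that median ranked 2 among all probe sets and 1 among those of a single gene.

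UBC29 followed the same order, with 22.08 in SUC2, 10.34 in S32 and 5.32 in S17. It had 1.95 in S4, the xylem line, and 0.75 to 1.41 in the remaining 4 lines. Its SUC2 level was 15.7 times the median of the other lines and 2.14 times S32. ROXY2 stood at 5.28 in SUC2, 1.88 in S32 and 1.22 in S17, against 0.51 to 0.94 elsewhere. Its SUC2 level was 7.26 times that median and 2.80 times S32, the widest lead over the next line among the 4 genes.

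GTR2 departed from this order. Its level was 12.83 in SUC2 and 12.00 in S17, a ratio of 1.07, so the label of a companion cell gene does not set it apart from the phloem pole pericycle line. It had 5.12 in RM1000, the primordium line, 2.66 in S32, 1.57 in JO121 and 0.53 to 0.84 in COBL9, S4 and J2501. Against S32, the SUC2 level was 4.83 times as high for GTR2, 2.80 times for ROXY2, 2.14 times for UBC29 and 2.12 times for ATC. With 1 deposited array per line there is no spread to set against any of these differences. In the J2501 array, whose label includes phloem, ATC stood at 1.20, UBC29 at 1.41, ROXY2 at 0.94 and GTR2 at 0.76, and these were at most 1.59 times that array's median. For background only, since the choice used this contrast, the SUC2 array was the highest of the 8 for 4.02% of all probe sets and at least 4-fold above the median of the other lines for 1.27%.

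**Figure D1:**
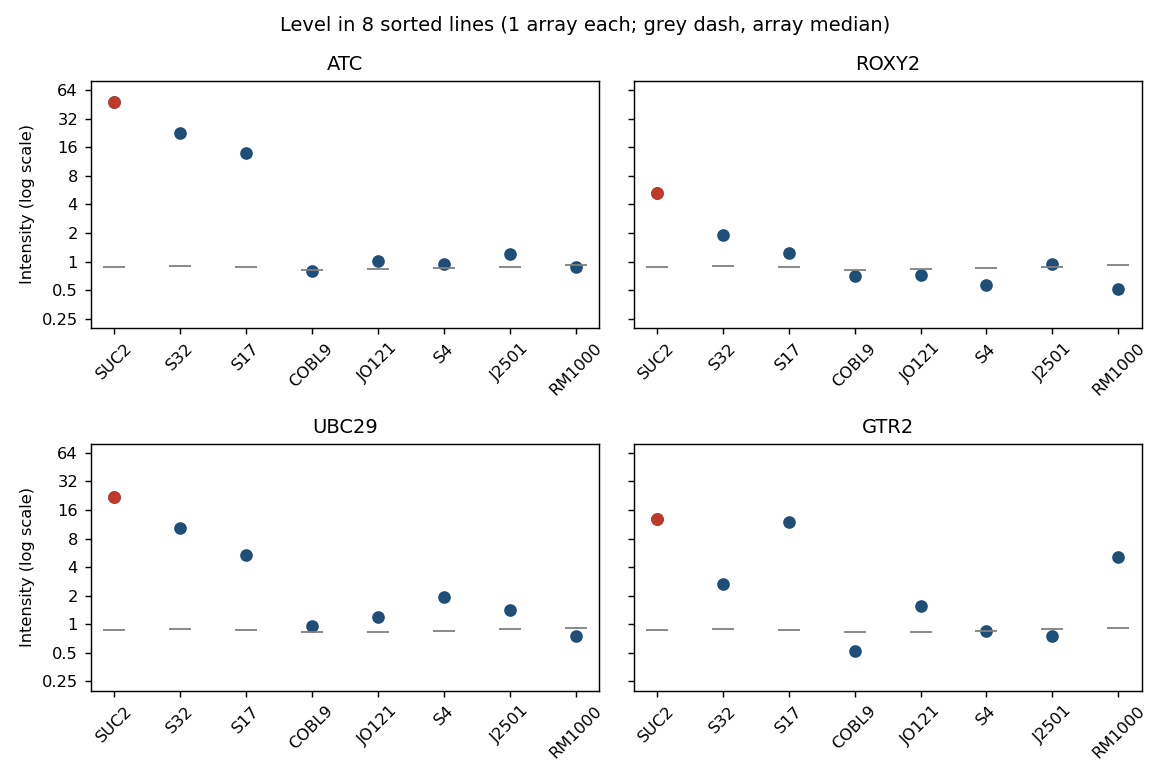
Intensity (log scale) of ATC, ROXY2, UBC29 and GTR2 in the 8 sorted lines, 1 array each, with SUC2 in red and a grey dash at each array's median. ATC, ROXY2 and UBC29 fall off in the order SUC2, S32 and S17, while GTR2 has 12.83 in SUC2 and 12.00 in S17.

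Markers of neighbouring cell types were measured in part. SWEET11, a sucrose exporter of phloem parenchyma and 1 of 2 genes listed for it, stood at 12.01 in SUC2, 28.32 in S17 and 5.47 in S32, against 0.65 to 1.02 in the other lines. OPS, a protophloem gene and the measured 1 of 9 sieve element genes, was at 0.53 in SUC2 and 0.83 in S32, below the median of either array. The root hair expansins EXPA7 and EXPA18 were at 1.26 and 1.13 in SUC2, against 16.87 and 7.05 in COBL9. LBD16, which marks founder cells of lateral roots, was at 2.47 in SUC2, 5.87 in S17 and 6.23 in RM1000, and LBD29 was at 0.71, 0.94 and 0.94 in the same lines. SUC2, S17 and S32 were the 3 highest lines of SWEET11 as of ATC, ROXY2 and UBC29, in another order, while GTR2 had RM1000 above S32. The part of phloem parenchyma in these levels was not tested. Of the 9 xylem genes listed, 0 could be read.

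Along the root, ATC and UBC29 varied between positions and GTR2 and ROXY2 did not pass the test. ATC ranged 19.1-fold between its lowest and highest position (log2 4.26, limma moderated F, adjusted p = 0.00269) and UBC29 4.63-fold (log2 2.21, adjusted p = 0.00157). The ATC range was log2 5.24 without maturation section 4 of root 1 and 5.47 without the 4 arrays of lowest spread. In both cases root 2 alone, at log2 5.13, then stood for maturation section 4. GTR2 ranged 2.53-fold (adjusted p = 0.116) and ROXY2 2.26-fold (log2 1.18, adjusted p = 0.357). The ROXY2 range was log2 0.61 without elongation section 2 of root 2, 1.97 without that of root 1 and 2.12 without the 4 arrays of lowest spread. In each case 1 root alone then stood for elongation section 2. The GTR2 range of log2 1.34 became 1.985 without maturation section 4 of root 1, where root 2 alone was then left. The 2 genes called stand beside 19.2% of all probe sets called by that test, with n = 2 roots at each position. In a section, fewer phloem cells and less RNA per cell cannot be told apart.

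ATC was near the array medians at the tip and had its highest levels far from it. In root 1 its levels from the tip were 1.09, 1.08, 1.09, 2.75, 5.37 and 2.42 in the meristematic sections, 7.19 and 2.03 in the elongation sections, and 1.14, 7.33, 18.21 and 6.57 in the maturation sections. In root 2 they were 0.79, 1.01, 1.16, 1.37, 1.32 and 1.54, then 4.13 and 3.34, and then 2.05, 12.33, 17.37 and 35.02. On intensity, both roots had a local high point in elongation section 1, a dip in maturation section 1 and their highest levels in maturation section 3 or 4. By percentile of the array, elongation sections 1 and 2 were close, at 96.71 and 96.55 in root 1 and 91.01 and 92.06 in root 2. The roots parted in the upper meristem, where root 1 was at 5.37 in section 5 and root 2 at 1.32. They also parted in maturation section 4, where the SD of the log2 values was 1.71 and the percentiles were 98.77 and 99.79. Elongation section 2 and maturation sections 1 and 4 of root 1 are arrays of low spread, and the part of array spread in these differences was not tested. The mean log2 level stood highest in maturation section 3 (4.15 ± 0.05 SD, n = 2 roots), followed by maturation section 4 (3.92 ± 1.71) and maturation section 2 (3.25 ± 0.53), and the gaps between these neighbours in rank were smaller than the SD of maturation section 4. Maturation section 2 over section 1, the log2 difference was 2.64 ± 0.70 SE, which did not pass after adjustment over all probe sets (limma, adjusted p = 0.624).

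UBC29 had a smoother profile. In root 1 its levels were 1.03, 1.01, 1.00, 1.12, 1.19 and 1.40 in the meristem, 1.53 and 1.61 in the elongation zone and 1.25, 2.1, 3.27 and 3.45 in the maturation zone. In root 2 they were 0.88, 0.79, 0.76, 0.95, 1.24 and 1.60, then 2.37 and 2.23, and then 2.49, 3.94, 2.78 and 4.70. Its 3 highest mean levels were those of maturation sections 4, 3 and 2, with geometric means of 4.03, 3.01 and 2.896. Its 3 lowest were those of meristematic sections 3, 2 and 1, at 0.87, 0.89 and 0.95, which differed by less than their SDs of 0.16 to 0.28 on the log2 scale. Only maturation section 1 of root 1, an array of low spread, fell inside the meristematic range of its root among the 8 maturation arrays.

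GTR2 lay low in the whole of the sectioned roots, between 0.51 and 2.45. In root 1 its levels were 0.85, 0.82, 0.70, 0.76, 0.70 and 0.76 in the meristem, 0.80 and 0.99 in the elongation zone and 0.91, 1.05, 1.49 and 1.00 in the maturation zone. In root 2 they were 0.64, 0.51, 0.55, 0.56, 0.75 and 0.90, then 1.03 and 1.52, and then 1.25, 1.86, 1.07 and 2.45. Within each root, every maturation array lay above every meristematic array. The roots differed most in maturation section 4, where root 2 stood 1.29 higher on the log2 scale.

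ROXY2 was flat in root 1, where the 12 positions lay between 0.75 and 1.09. In root 2 it was at 2.01 in meristematic section 2 and at 1.44 and 3.24 in the elongation sections, against 0.75 to 1.13 in the other meristematic sections and 1.28 to 1.59 in the maturation sections. Root 2 was higher than root 1 at 10 of 12 positions, with a median log2 difference of 0.54. On intensity, elongation section 2 was the highest position in both roots, at 1.09 in root 1 and 3.24 in root 2. The array of root 1 there is the section array of lowest spread among the 12 positions, and its median of 1.04 is the highest of all arrays. In root 1, ROXY2 was 1.05 times the array median in elongation section 2 and 1.08 times in maturation section 4. Relative to the array median, elongation section 2 was thus the highest position in root 2 but not in root 1. Because each root has its own series of array titles, a difference between roots and a difference between array batches cannot be told apart. The columella section had 1.14 for ATC, 1.03 for ROXY2, 1.04 for UBC29 and 0.99 for GTR2, against an array median of 0.99.

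**Figure D2:**
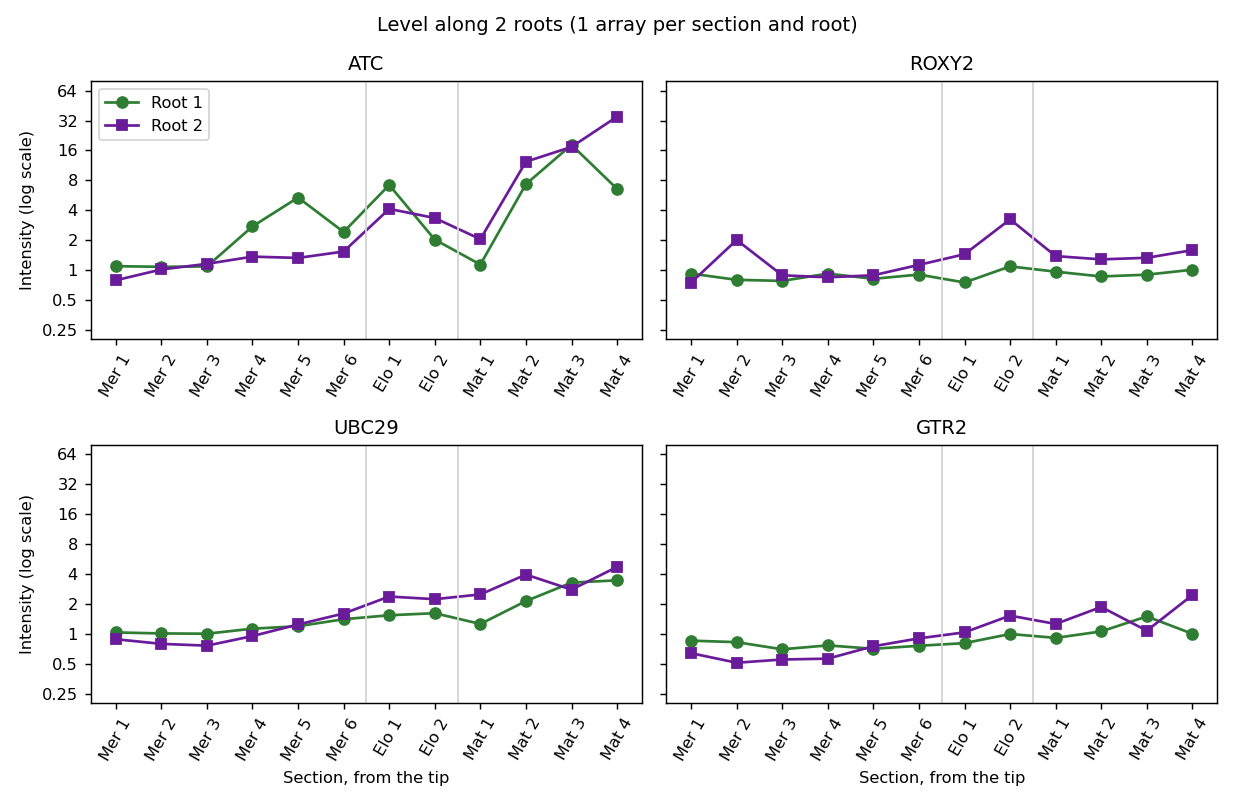
Intensity (log scale) of the 4 genes in the 6 meristematic (Mer), 2 elongation (Elo) and 4 maturation (Mat) sections of root 1 and root 2, counted from the tip, 1 array per point. ATC reaches 18.21 and 35.02 in the maturation zone, UBC29 ends at 3.45 and 4.70 in maturation section 4, and the ROXY2 point of 3.24 in elongation section 2 belongs to root 2 alone.

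Of the 11 steps between neighbouring positions, tested for each of the 4 genes, 0 of 44 passed by limma, 3 had an unadjusted p under 0.05 and the lowest adjusted p was 0.298, for ROXY2 between elongation sections 1 and 2. Hardly any probe set passed at single steps: 0.303% did at the step into meristematic section 2, 0.136% into elongation section 2 and 0.044% into maturation sections 3 and 4. The share was 0.0396% into maturation sections 1 and 2, 0.0264% into elongation section 1, 0.0176% into meristematic section 3 and 0% into meristematic sections 4, 5 and 6. No single boundary at which any of the 4 genes changed was resolved by 2 roots.

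The zones were then compared, with the mean log2 level of a zone in a root as 1 value. In the maturation zone ATC was 5.31-fold higher than in the meristematic zone (a log2 difference of 2.41 ± 0.39 SE over 2 roots, with a limma adjusted p of 0.0231). Its zone means were 5.62 and 11.13 in the maturation zones of roots 1 and 2, against 1.89 and 1.17 in their meristematic zones. UBC29 was 2.66-fold higher (log2 1.41 ± 0.21, adjusted p = 0.0195), with 2.34 and 3.36 in the maturation zones, against 1.12 and 1.00 in the meristematic zones. In root 2 and root 1 the log2 differences were 3.25 and 1.57 for ATC and 1.75 and 1.07 for UBC29.

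GTR2 was 1.88-fold higher in the maturation zone (log2 0.91 ± 0.22, adjusted p = 0.0607), just short of the threshold, with 1.09 and 1.57 in the maturation zones, against 0.76 and 0.64 in the meristematic zones. ROXY2 had 0.93 and 1.39 in the maturation zones and 0.85 and 1.02 in the meristematic zones (log2 0.29 ± 0.25, adjusted p = 0.594). The 2 of 4 genes called, both higher, stand beside 13.7% of all probe sets called in either direction and 6.66% called higher (7.07% lower), and the median change of all probe sets was -0.04. The ATC call was lost without maturation section 3 of root 1 (log2 2.127, adjusted p = 0.0674). GTR2 passed in the fit to all 24 section arrays (adjusted p = 0.000229), which counts sections of 1 plant as separate values, and with a trended prior variance (adjusted p = 0.0102). It also passed without the 4 root 1 arrays of lowest spread (adjusted p = 0.045), and without the second elongation array of root 2 or maturation section 1 or 4 of root 1 (adjusted p = 0.0447, 0.0465 and 0.0486). In the other 21 runs that left out an array GTR2 did not pass (adjusted p up to 0.12). Nor did it pass with no replicate block (adjusted p = 0.158), after quantile normalization (0.0975) or with 0.5 added to each value before the logarithm (0.0939).

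Markers of other cell types also moved between these zones. The root hair genes EXPA7 and EXPA18, both of the 2 read out of 4 listed, rose for maturation over meristematic zone (log2 2.14 ± 0.19, limma adjusted p = 0.00808, and 2.295 ± 0.22, adjusted p = 0.00855). They also rose for elongation over meristematic zone (log2 2.33 ± 0.19 and 2.54 ± 0.22, adjusted p = 0.0135 and 0.0136). The part of changing cell types in the differences of ATC and UBC29 was not tested. SWEET11, which shared its high lines with ATC and UBC29, had a log2 difference of 0.06 ± 0.12 for maturation over meristematic zone (adjusted p = 0.841). OPS had -0.0099 (adjusted p = 0.976), LBD16 0.59 (adjusted p = 0.0543) and LBD29 0.20 (adjusted p = 0.334). The zone means were 0.74 to 1.06 for SWEET11, 0.60 to 0.91 for OPS and 0.66 to 0.90 for LBD29. These levels lie near the array medians, where a change may not be seen. Over the 12 positions LBD16 passed (moderated F, adjusted p = 0.0302), as did EXPA7 and EXPA18 (adjusted p = 0.000839 and 0.000606).

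Elongation over meristematic zone, 0 of the 4 genes passed by limma, 3 had an unadjusted p under 0.05, and 7.52% of all probe sets passed (2.39% higher and 5.13% lower). ATC had 3.82 and 3.72 in the elongation zones of roots 1 and 2, against 1.89 and 1.17 in the meristematic zones (log2 1.34 ± 0.39, adjusted p = 0.115). UBC29 had 1.57 and 2.29 in the elongation zones, against 1.12 and 1.00 in the meristematic zones (log2 0.85 ± 0.21, adjusted p = 0.0803). The log2 difference was 0.60 ± 0.22 for GTR2 (adjusted p = 0.188) and 0.58 ± 0.25 for ROXY2 (adjusted p = 0.245), and in root 1 alone it was 0.23 and 0.08. All 4 differences were above 0 in both roots. ATC passed once the 4 root 1 arrays of lowest spread were removed (log2 1.72, adjusted p = 0.0273). It also passed without maturation section 1 of root 1 alone (adjusted p = 0.038). That section is in neither zone, and the log2 difference stayed at 1.34. UBC29 passed after quantile normalization (log2 1.043, adjusted p = 0.036). It also passed in the fit to all 24 section arrays (adjusted p = 0.0291), which counts sections of 1 plant as separate values.

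Maturation over elongation zone, 0 of the 4 genes passed by limma, 2 had an unadjusted p under 0.05, and 1.04% of all probe sets passed (0.827% higher and 0.211% lower). ATC had 5.62 and 11.13 in the maturation zones, against 3.82 and 3.72 in the elongation zones (log2 1.07 ± 0.39, adjusted p = 0.370). The log2 differences were 0.56 ± 0.21 for UBC29 (adjusted p = 0.379), 0.31 ± 0.22 for GTR2 (adjusted p = 0.579) and -0.30 ± 0.25 for ROXY2 (adjusted p = 0.624). For UBC29 the roots were close, at 0.58 in root 1 and 0.55 in root 2, while for ROXY2 they had opposite signs, at 0.04 and -0.64. These comparisons share the zone means of the same 2 roots and are not independent of each other.

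**Figure D3:**
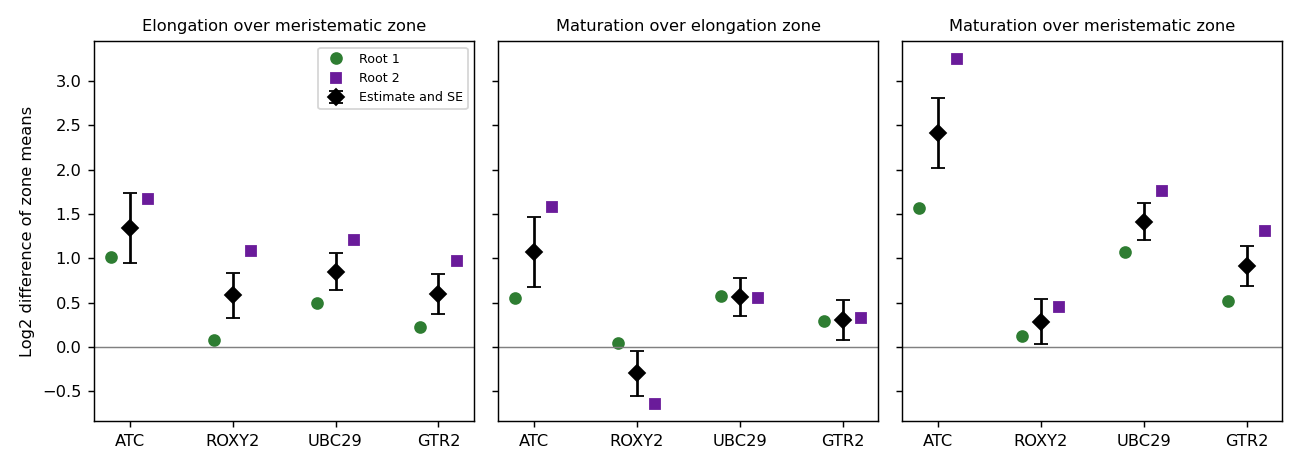
Log2 difference of zone means for ATC, ROXY2, UBC29 and GTR2 in the 3 zone comparisons, with root 1 (circles), root 2 (squares) and the limma estimate with its SE (diamonds). ATC at 2.41 and UBC29 at 1.41 in the maturation over meristematic panel are the values past the threshold.

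The other genes of each family were set beside the 4. Of 20 CC-type glutaredoxins 16 had a probe set to themselves, ROXY2 included, and of the other 15 the SUC2 array was the highest of the 8 lines for 8, or 53.3%, beside 4.02% of all probe sets. AT3G62930 had 3.09 in SUC2 and at most 0.91 in the other lines, and AT4G15660 had 1.31 and at most 0.70. Also among the 8, and named after their values were seen, were AT3G62950 with 1.70 in SUC2 and at most 0.57 elsewhere, and AT2G30540 with 1.55 and at most 0.76. In the SUC2 array 6 of the 8 lay above 1, and AT3G62930 had the highest level of the 8. The lead over the next line was small, at 1.29- to 1.44-fold, for AT1G06830, AT4G15680, AT3G62960 and AT4G15690. AT1G06830 and AT4G15690 stood at 0.92 and 0.80 in SUC2, near that array's median of 0.87. With 1 array per line such leads have no spread to be set against. Several of the 8 carry closely numbered loci (AT4G15660, AT4G15680 and AT4G15690; AT3G62930, AT3G62950 and AT3G62960). AT4G15700, numbered next to the first 3, was not highest in SUC2, with 0.515 there and 0.672 in J2501. Whether similar copies share signal on these probe sets was not tested, so values of single genes in these groups are uncertain. ROXY1, the nearest relative of ROXY2, did not follow it: it stood at 0.58 in SUC2, the lowest of the 8 lines, and at 1.73 in J2501 and 1.65 in S4.

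Over the 12 positions 2 of these 15 passed, GRX480, a glutaredoxin induced by salicylic acid (limma moderated F, adjusted p = 0.00626), and AT3G62930 (adjusted p = 0.0469), beside 19.2% of all probe sets. In the zone comparisons GRX480 was the 1 of the 15 that passed, and it rose. Beside it, 7.52% of all probe sets were called for elongation over meristematic zone (2.39% higher). For maturation over meristematic zone, 13.7% were called (6.66% higher). GRX480 passed in both of these comparisons. It had 2.46 and 1.86 in the elongation zones of roots 1 and 2 and 3.93 and 2.87 in the maturation zones, against 0.95 and 0.95 in the meristematic zones. Its log2 change was 1.17 ± 0.15 for elongation over meristematic zone (limma adjusted p = 0.0252) and 1.82 ± 0.15 for maturation over meristematic zone (adjusted p = 0.007). In the sorted lines it was highest in S17 at 18.69, with 7.46 in SUC2. The median change of the 15 was 0.17, -0.15 and 0.09 in the 3 zone comparisons (elongation over meristematic, maturation over elongation and maturation over meristematic), beside 0.05, -0.06 and -0.04 for all probe sets. The first GRX480 call was lost after quantile normalization (adjusted p = 0.136), without the 4 root 1 arrays of lowest spread (adjusted p = 0.0609), when the first elongation array of root 1 or root 2 was left out (adjusted p = 0.0675 and 0.0937) and without the fourth maturation section of root 1 (adjusted p = 0.0506). That maturation section is in neither zone of the first call, and without it the log2 change stayed at 1.17. The second was lost after quantile normalization (adjusted p = 0.072).

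**Figure D4:**
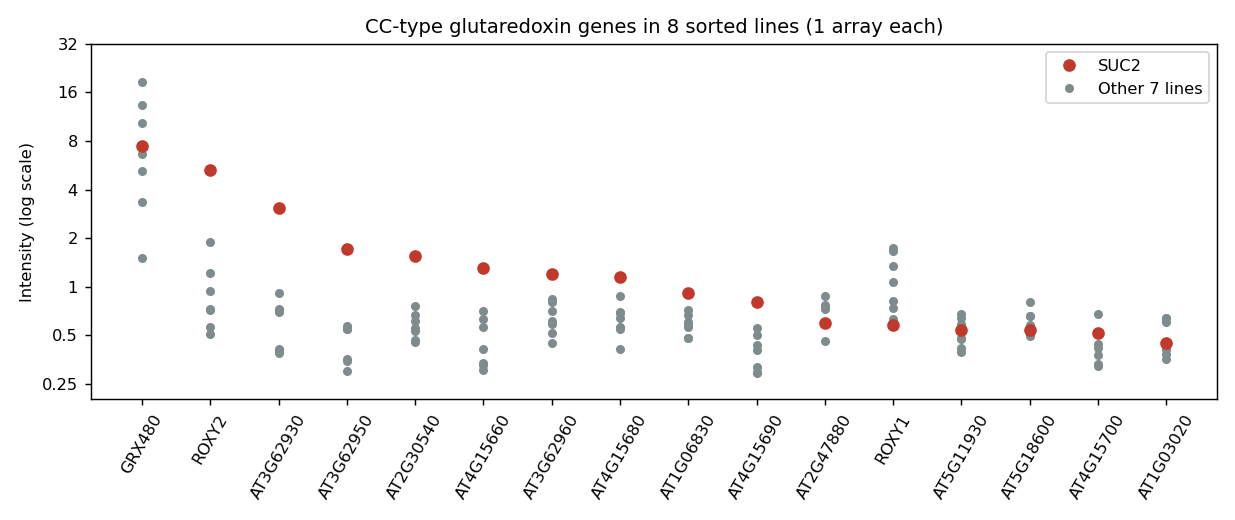
Intensity (log scale) of 16 CC-type glutaredoxin genes in the SUC2 array (red) and the other 7 sorted lines (grey), 1 array each, ordered by the SUC2 level. In ROXY2 and 8 further genes the SUC2 point lies above all grey points, and in ROXY1 it lies at 0.58, below them.

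Of 37 E2 enzyme genes 13 had a probe set to themselves, and the SUC2 array was the highest line for UBC29 and 2 of the other 12, UBC30 and UBC19, beside 4.02% of all probe sets. UBC30, of the same E2 subgroup as UBC29, had 14.64 in SUC2, 9.06 in S32, 8.63 in S17 and 6.97 in COBL9, against 2.58 to 4.07 in the other 4 lines. UBC19, named after its values were seen, had 3.29 in SUC2 and 3.22 in COBL9, and UBC16 had 1.60 in SUC2 and 2.20 in COBL9. UBC28, also of that subgroup, had 22.94 in SUC2 and 5.51 to 23.07 in the other lines. Over the 12 positions 3 of the 12 passed, beside 19.2% of all probe sets. In the zones 1 of the 12 passed, UBC20, a cell-cycle E2 that works with the anaphase-promoting complex, beside 7.52% of all probe sets called for the same comparison and 5.13% called lower. It fell in the elongation zone, with 1.62 and 1.18 in roots 1 and 2, against 2.85 and 2.87 in the meristematic zone (log2 -1.05 ± 0.16, limma adjusted p = 0.0309). The UBC20 call was lost after quantile normalization (adjusted p = 0.253), in the fit to all 24 section arrays (adjusted p = 0.170), and when any of 3 root 1 sections was left out, namely the first of elongation (adjusted p = 0.161), the second of the meristem (0.0686) and the third of maturation (0.0507). The maturation section is in neither zone compared, and without it the log2 difference stayed at -1.05. Neither UBC30 (log2 0.72 ± 0.32, adjusted p = 0.223) nor UBC28 (log2 -0.30 ± 0.13, adjusted p = 0.223) passed for maturation over meristematic zone. The median change of the 12 in that comparison was 0.12.

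For GTR2, 1 other of 4 listed NPF2 transporters and 2 of 19 glucosinolate biosynthesis genes could be read. GTR1 had 9.03 in SUC2 but 25.26 in S17, 15.27 in RM1000 and 8.51 in JO121, so GTR1 was highest in the phloem pole pericycle line, where GTR2 nearly equalled its SUC2 level. UGT74B1, the glucosyltransferase of the glucosinolate core, had 6.96 in SUC2, 18.21 in S17 and 15.86 in RM1000, against 1.29 to 3.90 elsewhere. BCAT4, an enzyme of methionine chain elongation, stayed between 0.46 and 0.77 in all 8 lines. In the zones GTR1 had 1.47 and 2.70 in the elongation zones, against 0.88 and 0.96 in the meristematic zones (log2 1.11 ± 0.22, limma adjusted p = 0.048). That call was lost after quantile normalization (adjusted p = 0.119), with 0.5 added to each value before the logarithm (adjusted p = 0.0808) and with any of 12 section arrays left out (adjusted p up to 0.174). UGT74B1 rose to 3.17 and 5.74 in the elongation zones and 2.67 and 5.44 in the maturation zones, against 1.26 and 1.40 in the meristematic zones (log2 1.68 ± 0.23, adjusted p = 0.0269, and 1.52 ± 0.23, adjusted p = 0.0208). Leaving out the first elongation array of root 1 ended both UGT74B1 calls (adjusted p = 0.134 and 0.0701), and leaving out that of root 2 ended the first (adjusted p = 0.0523). The elongation array is in neither zone of the second call, and without it that log2 difference stayed at 1.52. Neither ATC's 5 PEBP relatives nor the 10 TGA factors listed could be read from a probe set annotated to 1 gene.

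**Figure D5:**
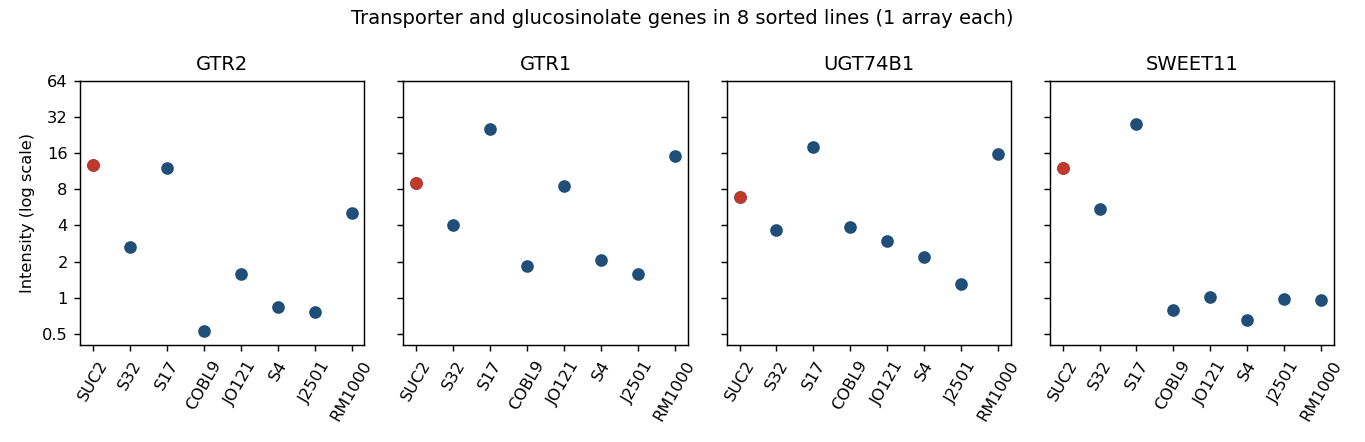
Intensity (log scale) of GTR2, GTR1, UGT74B1 and SWEET11 in the 8 sorted lines, 1 array each, with SUC2 in red. GTR1, UGT74B1 and SWEET11 are highest in S17, at 25.26, 18.21 and 28.32, and GTR2 has similar levels in SUC2 and S17.

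How alike the 4 genes were is described by Pearson's r of the log2 values, across 24 section arrays with each root centred on its own mean, and across the 8 sorted arrays. Arrays of 1 root come from 1 plant and are not independent. In the lines, the highest arrays were SUC2, S32 and S17 for ATC, ROXY2 and UBC29, and SUC2, S17 and RM1000 for GTR2. Values of r over the lines lean on these few high arrays. Over the sections, UBC29 and GTR2 had r = 0.907, ATC and UBC29 0.863, and ATC and GTR2 0.751, while ROXY2 had 0.263 to 0.475 with the other genes. Over the sorted lines the closest pair was ATC and UBC29 (r = 0.972), and GTR2 had 0.591 to 0.742 with the others. The choice on the SUC2 array favours a positive r over the lines, so these values are no evidence of likeness. Of 7090 probe sets ranked over the lines, 513, 1020 and 873 were more like GTR2 than ATC, ROXY2 and UBC29 were. By contrast, 0 were more like UBC29 than ATC was. Over the sections, 33 of 9312 were more like UBC29 than GTR2 was, and 2377 more like ATC than ROXY2 was.

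Among other genes that varied at least 2-fold, those most like ATC over the sections were AT1G78280, AT4G11190 and AT4G27654 (r = 0.904, 0.896 and 0.891). For UBC29 they were AT5G40020, AT5G17350 and AT1G71695 (0.955, 0.945 and 0.939), for GTR2 AT1G23560, AT2G47560 and AT3G62260 (0.944, 0.942 and 0.931), and for ROXY2 AT2G26500, AT2G22080 and AT2G28810 (0.745, 0.714 and 0.712). All those named for ATC and UBC29 stood lower in SUC2 than in another sorted line, as did AT1G78280 with 3.45 against 8.40. Of those named for GTR2 and ROXY2, AT1G23560, AT2G22080 and AT2G28810 were highest in SUC2, and AT2G47560, AT3G62260 and AT2G26500 were not. Over the sorted lines, AT3G15650, AT2G28810 and AT5G54660 were closest to ATC (0.987, 0.987 and 0.983). ATC, AT3G15650 and AT5G54660 were closest to UBC29 (0.972, 0.962 and 0.962), AT3G12730, AT1G33080 and AT1G33340 to ROXY2 (0.998, 0.995 and 0.994), and AT2G32090, AT5G37540 and AT1G76590 to GTR2 (0.991, 0.988 and 0.981). ATC and UBC29 thus shared AT3G15650 and AT5G54660 over the lines. For ATC, UBC29 and GTR2, no gene was among the closest 3 over both the sections and the lines, and the same held for ROXY2.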

How the data were processed

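The authors hybridised biotin-labelled cRNA, amplified in 2 cycles by the Affymetrix protocol per the labels' protocols, and deposited a linear intensity per probe set for 33 arrays. Background correction, summarisation, scaling and whether a line's array is a mean of replicates are not stated in the labels or headers used here, and the design text names replicates of the lines. Values were taken as log2 with no offset or filter. Of 22746 probe sets 13513 listed 1 gene, 503 several and 8730 were not listed, and 13436 matched the TAIR10.1 gene table by gene ID, used for names alone.

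Zone means per root (6 values) and the 24 section arrays were fitted with limma 3.58.1 in R 4.3.3, with root as a block, because sections of a root come from 1 plant. Root differences correlated between positions (median 0.477 over 66 pairs, range -0.233 to 0.834). Tests were two-sided, with the Benjamini-Hochberg adjustment across the 22746 probe sets and a threshold of 0.05. Residual degrees of freedom in the zone fit were 2, and prior ones 3.06. In simulated data of the same design and 22746 probe sets, 88 of 100 changed by log2 2 were recovered for maturation over meristematic zone, and 30 of 100 changed by log2 1. The simulated noise was independent between arrays, both roots had the same zone change, and few probe sets were changed. Recovery in the measured data may therefore differ. The number of arrays limits the precision.

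The genes, the lists and the tests were chosen with earlier results of these data known. Named genes were the 4 members, and every measured member of lists with up to 6. Of longer lists they were up to 4 passing in each direction and the 2 highest in SUC2 over the median of the other lines, plus the 3 most alike per member among probe sets with a log2 range of at least 1. UBC28, UBC19, ROXY1 and the glutaredoxins AT3G62950, AT2G30540, AT3G62960, AT4G15680, AT4G15690, AT4G15700 and AT1G06830 were named beyond that rule after their values were seen. Alternatives are given in the closing section.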

Additional observations from a re-analysis of the deposited data

How the results depend on the processing

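The 12 zone differences of the 4 genes were recomputed in 24 runs that left out a section array and in 7 other settings. Of these settings, the removal of the 4 root 1 arrays of lowest spread was chosen after seeing the data. The fit to all 24 section arrays counts sections of 1 plant as separate values. Of 369 values, 141 equalled the reported one, many because the array left out was in neither zone compared, and 0 of the 228 that moved reversed direction. A highest over lowest range cannot reverse. With the 4 ranges included, the side of the threshold was kept in 474 of 488 values. With an array left out, the ATC range ran from 4.088 to 5.236 and the ROXY2 range from 0.609 to 1.965. Such a run leaves 1 root at the position of that array. ATC for maturation over meristematic zone ran from 2.127 to 2.817 on the log2 scale with an array left out (adjusted p up to 0.0674) and passed in all 7 other settings. UBC29 passed in every run for that comparison and over the positions. For elongation over meristematic zone, ATC passed at 1.717 without the 4 arrays and, without maturation section 1 of root 1, at 1.339 (left-out range 0.883 to 1.796), and UBC29 passed at 1.043 after quantile normalization and at 0.847 in the fit to all 24 arrays. GTR2 for maturation over meristematic zone passed at 0.910 with a trended prior variance and in the fit to all 24 arrays, at 1.025 without the 4 arrays, and in 3 of the left-out runs (range 0.803 to 1.002). It did not pass at 0.910 with no replicate block, at 0.764 after quantile normalization, at 0.605 with the offset of 0.5 or in the other 21 left-out runs. Over the positions it passed at 1.337 with a trended prior variance and at 1.985 without the 4 arrays, and in 1 left-out run (range 1.177 to 1.985). The filter on low values removed GTR2. The counts of probe sets were less steady, and the cause was not tested. For elongation over meristematic zone, 1710 became 193 with no replicate block, 945 after quantile normalization, 1121 with the offset of 0.5 and 564 to 2031 with an array left out. For maturation over elongation zone, 236 became 79 with no replicate block, 64, 80, 377 with the filter, 654 with the trended prior, 526 with all 24 arrays, 607 without the 4 arrays and 46 to 472 with an array left out. For maturation over meristematic zone, 3122 became 730 with no replicate block, 6284 with all 24 arrays and 1609 to 3771, and over the positions 4378 became 2442 with no replicate block and 2570 to 5122. Leaving out the replicate block changed no call of the 4 genes, and it ended the calls of GRX480 and UBC20 for elongation over meristematic zone (adjusted p = 0.109 and 0.114), of GTR1 (0.185) and both calls of UGT74B1 (0.134 and 0.106). In the sorted lines the SUC2 level over the highest other line, in place of the median, gave a log2 difference of 1.08 for ATC, 1.49 for ROXY2, 1.10 for UBC29 and 0.097 for GTR2, and ROXY2 stood at 2.24 over the median with the offset. The number of arrays, and signals near the array median for ROXY2 and GTR2, limit what can be seen.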
